A study of Homo sapiens with 16 samples.

Results

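The MYC promoter and PVT1 were followed through the chromatin contacts of K562, a human leukaemia line long established in culture. The members were the 20 kb bin that holds the MYC promoter at 128.748 Mb of chromosome 8 and the 16 bins that hold PVT1, between 128.807 and 129.114 Mb (build hg19). They were found by numbering the bins from 1 through the chromosomes of hg19, and all contacts of these 17 bins within 126.5 to 131.5 Mb were taken. The 17 bins were among 250 bins of this window and 137198 bins genome-wide that were present in all 8 files of the second sequencing run, and none of the 17 was missing. The window includes the stretch from 130.5 to 130.8 Mb, called the far downstream part here, which held 15 bins.

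The assay was Hi-C performed in nuclei, in which fixed chromatin is digested, the ends are filled with a biotin-marked nucleotide and joined, and each joined pair of ends is counted as 1 contact. Every library came from unedited K562 cells fixed with formaldehyde, and the groups differed in the length of digestion with the restriction enzyme HindIII, which was 0.25, 1, 3 or 12 h. The study varied this time to reach the most accessible domain boundaries at short digestions. Each time had 2 replicate libraries, and each of the 8 libraries was sequenced in 2 runs. The labels do not say whether the 2 replicates were separate cultures, so p-values measure the spread between these libraries, which may be technical.

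MYC encodes a transcription factor that drives cell growth and division, and its level is often raised in leukaemias. It lies in a long stretch with few protein-coding genes, and its control is known to depend on enhancers that can lie far from the promoter on either side, in an arrangement that differs between tissues. PVT1, the next gene downstream, makes a long noncoding RNA, hosts several microRNAs, and is known both for its own promoter and for enhancers within its body. In K562 cells, enhancers of MYC have been located by interference screens in PVT1 and in the far downstream stretch. The files analysed here hold contacts only, so no bin is called an enhancer from these data.

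The second-run libraries held between 62777251 (0.25 h, replicate 2) and 176412222 (12 h, replicate 1) contacts, and replicate 1 was deeper than replicate 2 at every time. Of these, 88.0% to 90.3% joined bins of the same chromosome, and 11.5% to 24.2% lay inside a single 20 kb bin. Levels below are observed over expected, the balanced signal between 2 places divided by the mean balanced signal of all pairs of bins at the same distance on chromosomes 1 to 22 and X, so that 1 is the genome average at that distance. Whole contacts, recovered from the deposited signal, are given beside them.

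The MYC promoter bin (chromosome 8, 128740001 to 128760000) contacted its downstream side far more than its upstream side, and this held in every library. Over bins at least 100 kb away, 120 of 133 downstream bins were above 1 and 75 were above 2, against 17 and 4 of 108 upstream bins. No upstream bin was above 5, and 13 downstream bins were, of which 12 lay in the far downstream part. The downstream bins together held 5752 contacts with the promoter bin and the upstream bins 1673, pooled over 8 libraries.

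**Figure D1:**
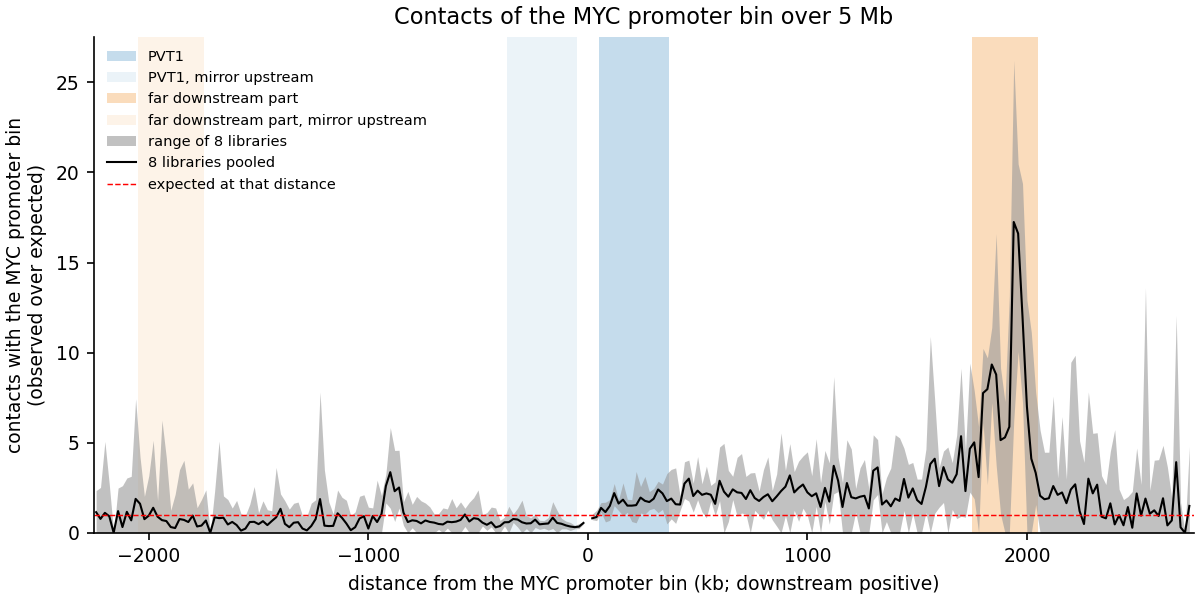
Observed over expected of contacts between the MYC promoter bin and each other 20 kb bin (y axis, linear) against distance from that bin in kb (x axis, downstream positive). The black line pools the 8 libraries, grey is their range, and shaded stretches are PVT1, the far downstream part and their upstream mirrors; the pooled line peaks at 17.3 in the far part and stays low over the upstream mirrors.

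PVT1 lay 60 to 360 kb downstream of the promoter bin (128800001 to 129120000). The promoter bin had 218 and 108 contacts with PVT1 in replicates 1 and 2 after 0.25 h, 238 and 138 after 1 h, 307 and 227 after 3 h, and 356 and 282 after 12 h. The same distances upstream, at 128380001 to 128700000, gave 86 and 43 contacts after 0.25 h, 90 and 46 after 1 h, 114 and 76 after 3 h, and 157 and 123 after 12 h. PVT1 therefore held more contacts than its mirror in all 8 libraries, and the raw numbers followed the depth of each library.

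Observed over expected between promoter and PVT1 was 1.67 ± 0.0875 (SD, n = 8 libraries), from 1.53 to 1.78. In the mirror it was 0.5004 ± 0.0597, from 0.376 to 0.565, so the values of both sides did not overlap. The difference within a library was 1.74 ± 0.23 on the log2 scale, a 3.35-fold mean, with PVT1 higher in 8 of 8 libraries (two-sided exact sign-flip permutation test, p = 0.00781, the smallest that 8 libraries allow). In all, 3 such downstream against upstream comparisons were made, each with this p, so the Benjamini-Hochberg value was also 0.00781. Among 132986 bins used as anchors in the same way, 3.00% had a pooled downstream value at or above that of the MYC promoter bin. At the upstream distances 98.4% did.

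This comparison did not hold in every setting. With the promoter bin and 1 bin to each side as anchor, PVT1 stood at 1.29 ± 0.0305 and the log2 difference was 1.05 ± 0.07, still in 8 of 8 libraries. In the first run, whose bins are 50 kb, PVT1 stood at 0.714 ± 0.115, and the log2 difference was -0.37 ± 0.36, above 0 in 1 of 8 libraries (exact sign-flip permutation p = 0.0391). The first-run bin that holds the promoter point lies mostly upstream of the second-run promoter bin and includes the bin with the lowest insulation score of the window, given further on. Run, depth, bin size and anchor differ together there, and their parts were not tested. In the second run without balancing, the log2 difference was 1.38 ± 0.15.

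Within PVT1, all 16 bins were above 1 with the promoter bin in the pooled data. The level did not drop along the gene. The first bin (128800001 to 128820000) had 245 contacts and a level of 1.39 ± 0.198, and the lowest level was 1.17 ± 0.363 in the next bin. Levels over 2 were seen at 128860001 (2.26 ± 0.458, 89 contacts), at 129060001 (2.35 ± 0.593, 81 contacts) and at 129080001 (2.20 ± 0.498, 65 contacts). A bin held between 1 and 57 contacts with the promoter bin in a single library, and the ranges of neighbouring bins overlapped widely.

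Between PVT1 and the far downstream part lie 69 bins (129120001 to 130500000), and all 69 were above 1 with the promoter bin. Their level was 2.28 ± 0.0548 (from 2.21 to 2.37, 3028 contacts), against 0.752 ± 0.0926 in the mirror stretch upstream (907 contacts). The log2 difference was 1.61 ± 0.18 in 8 of 8 libraries (exact sign-flip permutation p = 0.00781). It was 1.71 ± 0.20 without balancing, 1.25 ± 0.09 with 3 anchor bins and 0.89 ± 0.29 in the first run, above 0 in 8 of 8 libraries each time. The raised level thus ran through the whole downstream interval and was not limited to PVT1.

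The highest levels of contact of the MYC promoter bin in the window lay in the far downstream part, 1760 to 2040 kb away (130500001 to 130800000). Replicates 1 and 2 had 113 and 60 contacts after 0.25 h, 114 and 88 after 1 h, 162 and 118 after 3 h, and 159 and 142 after 12 h. The mirror stretch upstream (126700001 to 127000000) had 12 and 5 contacts after 0.25 h, 15 and 6 after 1 h, 6 and 3 after 3 h, and 7 and 14 after 12 h. The far part thus held more contacts than its mirror in every library, by 956 to 68 in the pooled data.

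Observed over expected to the far part was 7.88 ± 0.858 (n = 8), from 6.90 to 9.15, and to its mirror 0.779 ± 0.279, from 0.392 to 1.20. The log2 difference was 3.43 ± 0.66, a 10.7-fold mean, and the lowest library stood at 2.55 (8 of 8 libraries, two-sided exact sign-flip permutation p = 0.00781). It was 3.94 ± 0.83 without balancing, 2.78 ± 0.37 with 3 anchor bins and 2.52 ± 0.92 in the first run, in 8 of 8 libraries each time. The first run came from the same libraries and is no separate replicate.

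**Figure D2:**
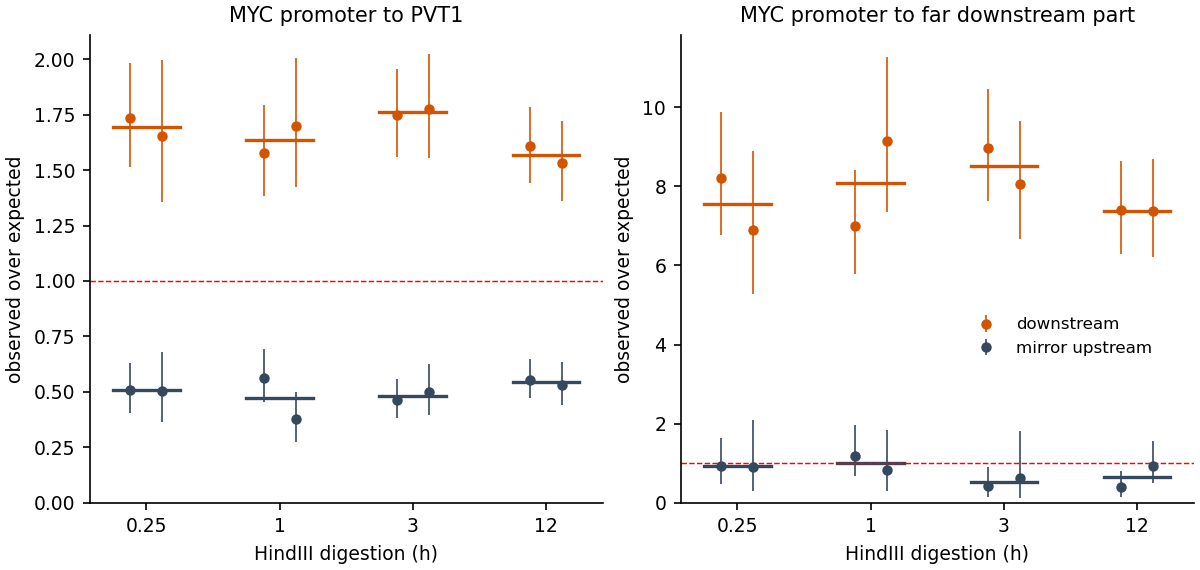
Observed over expected (y axes, linear, from 0) of contacts from the MYC promoter bin to PVT1 (left) and to the far downstream part (right), with the mirror stretch upstream, at each digestion time in h (x axis). Points are single libraries with 95% Poisson intervals that cover counting error only, short lines are means of 2, and every downstream point lies above every mirror point.

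Set against other places in the genome at this distance, the value was rare. Of 129750 anchor bins, 14 (0.0108%) had a pooled level to the bins 1760 to 2040 kb downstream at or above the 7.85 of the MYC promoter bin. The median anchor stood at 0.833 and the 99th percentile at 3.01. On chromosome 8 the promoter bin was the only 1 of 6648 anchors to reach this level. In single libraries its percentile ranged from 99.92 to 99.99. Upstream its pooled level was at or below that of 58.3% of anchors.

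The balanced level peaked at the promoter bin among its neighbours. With the band moved along with the anchor, the 3 bins before it had pooled levels of 2.59, 3.49 and 5.16, and the 3 bins after it 5.54, 3.90 and 3.91. The levels of the neighbours also stood above the 95th percentile of all anchors, 2.19. Whole contacts did not peak there. The promoter bin had 956, the 3 bins before it 271, 403 and 1399, and the 3 bins after it 538, 214 and 424.

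The contacts with the far part formed a pair of peaks. The first lay at 130540001 to 130620000, 1800 to 1860 kb from the promoter bin, with 4 bins between 7.62 and 9.51. Its highest bin, 130580001 to 130600000, had 116 contacts and a level of 9.51 ± 1.64. The bins from 130620001 to 130680000 were lower, between 4.84 and 6.03. The second peak lay at 130680001 to 130740000, with levels of 16.5 ± 7.46 (83 contacts), 16.8 ± 3.44 (175 contacts) and 12.0 ± 4.38 (74 contacts). The bin at 130700001 had 13 to 32 contacts in each library and was the best measured of these. The 3 bins together held 332 contacts and stood at 15.1 ± 2.40, from 11.3 to 18.1, so no library lacked the second peak.

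Past 130740001 the level was lower, with 3.602 ± 2.02 in the last bin of the far part (11 contacts). Over the 35 bins beyond it, to 131500000, it was 1.56 ± 0.182 (247 contacts).

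Upstream, the promoter bin had a single stretch of bins above 2. Above 1 were 17 of the 108 upstream bins, and 27 of the 108 held the 20 contacts needed to be named. The 4 highest upstream bins were neighbours, at 127820001 to 127900000, 860 to 920 kb away. Their pooled levels were 3.37 at 127840001 (58 contacts), 2.60 at 127820001 (53 contacts), 2.52 at 127880001 (48 contacts) and 2.31 at 127860001 (32 contacts). The fifth highest with at least 20 contacts, the adjacent bin at 127800001, was at 1.04 with 27 contacts. As 1 stretch the 4 bins stood at 2.74 ± 0.758 (191 contacts), from 1.504 to 3.66.

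Seen from the far downstream part, the MYC promoter bin was the highest of all bins of the window outside the far part itself, with a pooled level of 7.85. The next were 127840001 to 127860000 (7.75, 594 contacts) and 127880001 to 127900000 (6.84, 568 contacts), both in the upstream stretch that also contacted MYC. The 3 stretches therefore contacted each other in each of the 3 combinations. The upstream stretch and the second peak of the far part stood at 11.2 ± 1.21 (708 contacts, from 9.48 to 12.7). These stretches were chosen from the pooled profiles, so their levels are a description and carry no test.

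PVT1 also contacted the far downstream part above the genome average, but less than the MYC promoter bin did. PVT1 and the far part had 775 and 496 contacts after 0.25 h, 871 and 594 after 1 h, 1055 and 888 after 3 h, and 1449 and 1248 after 12 h. The level was 3.28 ± 0.116, from 3.04 to 3.39. In each library the promoter bin was higher than PVT1, by 1.26 ± 0.17 on the log2 scale (2.39-fold, 8 of 8 libraries). This comparison was added after the values were seen, so it carries no test.

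Contact with the far part was not particular to PVT1. The mirror of PVT1, on the other side of the promoter, stood at 2.63 ± 0.187 with the far part (4691 contacts). This was lower than PVT1 by 0.32 ± 0.10 on the log2 scale (8 of 8 libraries, exact sign-flip permutation p = 0.00781, likewise added). The difference ran from 0.146 to 0.471 over the libraries, with all digestion times pooled. The mirror stood at 2.45 and 2.42 after 0.25 h and at 2.81 and 2.88 after 12 h, without overlap. PVT1 stood at 3.04 and 3.35 after 0.25 h and at 3.39 and 3.19 after 12 h, with overlapping ranges. The mean difference thus pools times at which the mirror's level differed, and its change with time was not tested. All 112 bins of the window upstream of the promoter bin had a pooled level above 1 with the far part, with a median of 2.06, against 62 of 69 bins between PVT1 and the far part, with a median of 1.71. None of the 35 bins beyond the far part reached 1, and their median was 0.455. The far part's raised contacts thus lay toward MYC and past it, and the bins beyond the far part did not share them. Raised contact with the bins upstream of MYC was not particular to the far part. The 100 kb square that starts 640 kb upstream of MYC reached 2.23 with squares between PVT1 and the far part. With the squares of the far part it stood between 1.46 and 3.72.

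**Figure D3:**
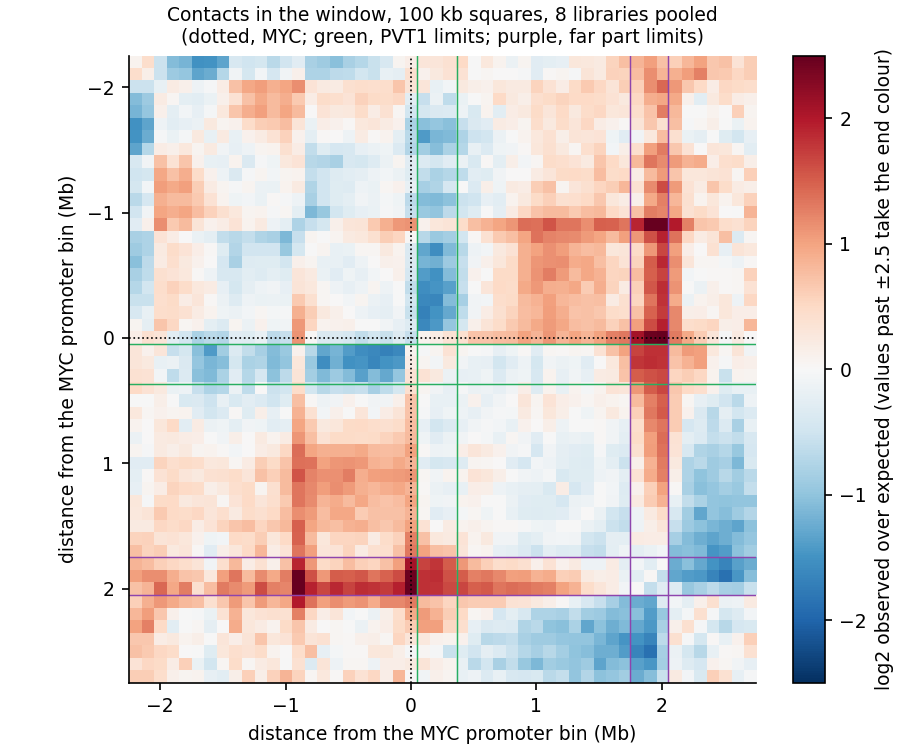
Pooled log2 observed over expected of the 5 Mb window in 100 kb squares, with distance from the MYC promoter bin in Mb on both axes. Red is above and blue below the average for that distance; the row and column of the far part (purple limits) are mostly red from the upstream end of the window to PVT1, darkest at MYC (dotted) and in the upstream stretch, and paler with some squares below average nearer the far part, and blue lies between PVT1 (green limits) and the bins upstream of MYC.

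Among the 16 PVT1 bins, the pooled level with the far part ran from 2.73 to 4.03, with ranks from 9 to 41 in the window. The bin at 128800001, the first of the gene, was highest (4.03, 503 contacts), followed by 128900001 (3.95, 242 contacts). PVT1 shared this pair of peaks. Over its 16 bins together it stood at 4.25 ± 0.245 with 130580001 (949 contacts) and at 5.61 ± 0.557 with 130700001 (1081 contacts), and at 2.66 ± 0.483 with 130640001 between them. In the mirror of PVT1 the level with 130580001 was 1.89 ± 0.275, below that with 130700001, 3.55 ± 0.494. The ranges of PVT1 and its mirror at 130580001, 4.01 to 4.65 and 1.41 to 2.26, did not overlap. At the downstream end of the far part the mirror was higher than PVT1. PVT1 and its mirror stood at 3.18 and 3.86 with 130740001, and at 2.23 and 3.44 with 130760001, with overlapping ranges. With 130780001 they stood at 1.44 and 3.25, and the highest PVT1 library, 1.82, lay below the lowest of the mirror, 1.90.

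In the balanced signal PVT1 bins contacted each other at the average for their distance, 1.02 ± 0.0141 (22913 contacts). Without balancing the level was 0.820 ± 0.0375, from 0.772 to 0.868. Contacts between PVT1 and its mirror across the promoter were low, at 0.381 ± 0.0158 (4152 contacts, from 0.358 to 0.403). For comparison, the mirror's own bins stood at 0.920 ± 0.0127 with each other.

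The low contact across the promoter was also seen in the insulation score, which is computed from the same balanced signal. This score is the log2 of the mean balanced signal between the 200 kb on each side of a bin over its chromosome mean. It is low where few contacts cross. The lowest score of the window lay in the bin next to the promoter bin, 128720001 to 128740000, at -1.49 ± 0.10 (n = 8, from -1.70 to -1.36). Only 0.114% of all bins had a lower mean score. The promoter bin itself stood at -1.46 ± 0.10, the 0.148 percentile.

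The second lowest minimum lay in the far downstream part, at 130740001 to 130760000, at -1.05 ± 0.09. The third lay in the upstream stretch, at 127840001 to 127860000, at -0.97 ± 0.10. Each of these 3 minima was found within 1 bin of its place in 8 of 8 libraries. They thus fell in or next to the 3 stretches that contacted each other. The fourth minimum, at 126700001, was nearly as low as the third (-0.94 ± 0.09, 8 of 8 libraries). It lay in none of these stretches but in the mirror of the far part. PVT1 bins scored between -0.20 and 0.41. PVT1 held the minimum nearest the promoter bin on its downstream side, at 129080001, which was shallow (-0.17 ± 0.07) and found in 4 of 8 libraries. The score there was -0.106 ± 0.00236 after 0.25 h, -0.125 ± 0.0690 after 1 h, -0.214 ± 0.0386 after 3 h and -0.241 ± 0.0463 after 12 h (n = 2 each). In the limma fit of 0.25 h against 12 h, 0 of 16 PVT1 bins and 0 of all 134553 bins were called. The median difference was 0.09 over PVT1 and -0.0001 over all bins.

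**Figure D4:**
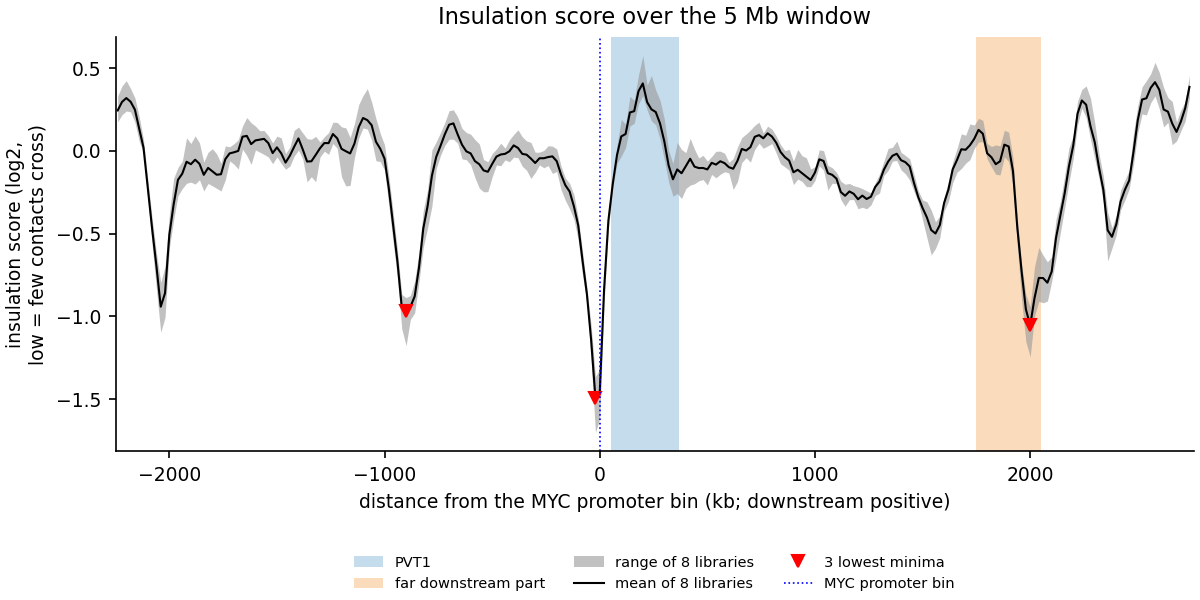
Insulation score (y axis, log2, low where few contacts cross a bin) against distance from the MYC promoter bin in kb (x axis). The line is the mean of 8 libraries, grey their range, and red triangles the 3 lowest minima, which sit next to MYC (-1.49), at the end of the far downstream part (-1.05) and in the upstream stretch (-0.97).

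The question set by the design was whether these contacts differ with digestion time, and no difference with time was found for the contacts of the promoter bin. To the far part, the level was 7.55 ± 0.923 after 0.25 h, 8.07 ± 1.52 after 1 h, 8.51 ± 0.632 after 3 h and 7.38 ± 0.0129 after 12 h (n = 2 each). The 12 h libraries lay within the range of those of 0.25 h and of 1 h, and the 3 h libraries lay above both 12 h libraries. Spearman's rho with log2 hours was 0.0488 (two-sided exact permutation p = 0.946, 0.946 after Benjamini-Hochberg adjustment over 7 trends, n = 8). The corresponding Pearson's r, -0.0214 (exact permutation p = 0.961), became -0.376 when the 0.25 h libraries were left out and 0.453 when the 12 h libraries were. In the limma fit of 0.25 h against 12 h with every bin as anchor, the difference for the MYC promoter bin was 0.04 on the log2 scale (95% interval -0.81 to 0.88, adjusted p = 0.994). A difference inside this interval could not be told from none with these libraries.

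To PVT1, the level was 1.69 ± 0.0580 after 0.25 h, 1.64 ± 0.0836 after 1 h, 1.76 ± 0.0206 after 3 h and 1.57 ± 0.0522 after 12 h. The 12 h mean was the lowest, but for the trend rho was -0.244 (exact permutation p = 0.586, adjusted value 0.784) and an r of -0.374 (exact permutation p = 0.349), which was -0.367 with 0.25 h left out and 0.370 with 12 h left out. The limma difference of 0.25 h against 12 h was 0.11 (95% interval -0.11 to 0.33, adjusted p = 0.821). This interval is narrower than that of the far part, and more contacts stand behind it.

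The other contact trends gave no call either. For the far mirror of MYC rho was -0.537 (exact permutation p = 0.190, adjusted value 0.632), with r of -0.525 (exact permutation p = 0.184), -0.478 with 0.25 h left out and -0.625 with 12 h left out. Without 12 h replicate 2 this rho was -0.826 (unadjusted exact permutation p = 0.0381), on 3 to 15 contacts a library. For PVT1 to the far part rho was 0.195 (exact permutation p = 0.672, adjusted value 0.784), with r of 0.301 (exact permutation p = 0.492), -0.145 with 0.25 h left out and 0.466 with 12 h left out. Within PVT1 rho was -0.390 (exact permutation p = 0.361, adjusted value 0.632), with r of -0.316 (exact permutation p = 0.440), 0.374 with 0.25 h left out and -0.625 with 12 h left out.

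Single pairs of bins were tested across the genome too. Of 1279173 pairs with at least 10 contacts a library on average, limma called 0 between 0.25 h and 12 h after Benjamini-Hochberg adjustment (0%), and 5.97% had an unadjusted p under 0.05. Of 30 tested pairs of the MYC promoter bin, 11 lay in PVT1 and 6 in the far part, and 0 of the 30 were called or had an unadjusted p under 0.05. Within PVT1, 6 of 78 pairs had an unadjusted p under 0.05, 7.69% of them, near the share over all pairs. Without 0.25 h replicate 1 the fit called 2358 pairs genome-wide.

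The bands gave 0 calls as well, in 132986 anchors at the PVT1 distance and in 129750 at the far distance (0% each), with 7.42% and 6.31% at an unadjusted p under 0.05. Without balancing, limma called 12984 anchors at the PVT1 distance (9.76%). The promoter bin was not among them (difference 0.175, limma adjusted p = 0.279), and 0 of 16 PVT1 bins were. Of the 250 bins of the window, 3 were higher and 1 lower. For the insulation score, 0 of 134553 bins were called (0%), with 7.91% at an unadjusted p under 0.05. At the promoter bin the score differed by -0.10 between 0.25 h and 12 h (95% interval -0.28 to 0.08, adjusted p = 0.778, and -0.173 to -0.0263 with 1 library left out at a time). Without 0.25 h replicate 1 the fit called 91 bins, none of them in the window, and without balancing it called 55536 (41.3%; 15.7% higher, 25.6% lower), with 19 higher and 28 lower among the 250 bins of the window and 0 of 16 in PVT1.

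What did differ with digestion time was how many contacts the bins took part in. For the promoter bin, contacts outside the bin were 1442 and 784 after 0.25 h, 1572 and 971 after 1 h, 1834 and 1395 after 3 h, and 2225 and 1875 after 12 h. In CPM, contacts of the bin scaled to a fixed library total of such contacts, these were 7.92 and 8.25 after 0.25 h, 8.00 and 7.63 after 1 h, 7.70 and 7.81 after 3 h, and 7.15 and 6.91 after 12 h. Both 12 h libraries were below all others. The difference of 0.25 h against 12 h was 0.18 on the log2(CPM + 1) scale (SE 0.0412, limma adjusted p = 0.00189), with both 0.25 h libraries above both 12 h libraries. With contacts inside the bin included it was 0.09 and no longer called (adjusted p = 0.0637).

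A call in this fit was common. Of 137198 bins, 74762 were called (54.5%), 19.5% higher and 35.0% lower after 0.25 h. Scaling by median-of-ratios size factors in place of totals moved this split from 26742 higher and 48020 lower to 36791 and 38519, and moved the median of all bins from -0.04 to 0.00.

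Of the 16 PVT1 bins, 2 were higher and 6 lower after 0.25 h in the main fit, which did not pair replicates. With a replicate block 3 were higher and 7 lower, against 21.3% and 37.3% of all bins. The median difference of the 16 bins was -0.09, against -0.04 over all bins. The median-of-ratios scaling gave 3 higher and 4 lower (26.8% and 28.1% of all bins). With contacts inside the bins included, 2 were higher and 10 lower with a median of -0.16, while 19.1% of all bins were higher and 41.2% lower with a median of -0.07. With a pseudocount of 0.1 CPM 0 were higher and 5 lower, against 18.3% and 33.9% of all bins. The bin at 128840001 to 128860000 was the lowest of the whole window at -0.34 (SE 0.0422, limma adjusted p = 1.16e-05). Its level was 3.24 ± 0.158 CPM after 0.25 h, 3.28 ± 0.0857 after 1 h, 3.55 ± 0.127 after 3 h and 4.37 ± 0.0558 after 12 h, so the 12 h libraries stood apart from all others. The last PVT1 bin, 129100001, was next at -0.33 (SE 0.0489, adjusted p = 5.99e-05), with 5.46 ± 0.416 CPM after 0.25 h and 7.09 ± 0.197 after 12 h. The third lowest of the window, 126900001 at -0.31, lay outside PVT1. The highest PVT1 bin was 128920001 at 0.18 (SE 0.0661, adjusted p = 0.0286), where the 0.25 h libraries had 10.2 and 12.6 CPM and the 12 h libraries 9.72 and 10.03.

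With 1 library left out, the number of PVT1 bins called higher was 0 without 0.25 h replicate 2, without 12 h replicate 1 or without 12 h replicate 2, and 3 without 0.25 h replicate 1. The highest PVT1 difference was 0.05 without 0.25 h replicate 2, 0.16 without 12 h replicate 1, 0.20 without 12 h replicate 2 and 0.32 without 0.25 h replicate 1, so it was clearly smaller only in the first of these fits. Over all bins 12.3% to 18.5% were called higher in these fits and 35726 to 48502 of 137198 lower, at most 35.4%, and 4 to 7 of the 16 PVT1 bins were lower. The 7 came without 0.25 h replicate 2, where 31.6% of all bins were lower. In such a fit 1 time has a single library, which is assumed to vary like the libraries of the other times, here and for pairs and insulation scores.

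In the far downstream part, the bin at 130580001 to 130600000, the top of the first peak, was the most raised of the window after 0.25 h. It had 18.3 and 22.9 CPM after 0.25 h, 17.5 and 18.8 after 1 h, 17.6 and 18.6 after 3 h, and 12.6 and 13.05 after 12 h. The difference was 0.63 (SE 0.0711, limma adjusted p = 5.03e-06). The next highest bins of the window were 127100001 at 0.29 and 129660001 at 0.27. All 6 libraries of the shorter times lay above both 12 h libraries. In this bin contacts inside the bin were 15.8% and 19.9% after 0.25 h and 5.35% and 6.57% after 12 h.

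The share of a bin's contacts that lay inside the bin itself, its self share, was low for the promoter bin and varied widely over PVT1. Pooled over libraries, the self share of the promoter bin was 1.08%, which only 10.1% of bins undercut, while the median bin of the genome stood at 6.05% and that of the window at 6.12%. The promoter bin had 24 and 8 such contacts after 0.25 h, 28 and 8 after 1 h, 24 and 9 after 3 h, and 10 and 21 after 12 h. PVT1 bins ranged from 0.175% (128860001, 8 contacts) to 19.8% (128920001, 4185 contacts), with a median of 3.69%, so the promoter bin lay inside their range. The HindIII sites in each bin were not used here, so these shares are not corrected for them.

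Summed over PVT1, the self share fell with digestion time. It was 11.5% and 14.3% after 0.25 h, 9.88% and 9.88% after 1 h, 9.43% and 8.65% after 3 h, and 5.05% and 4.82% after 12 h. No library of a longer time reached one of a shorter time. Spearman's rho was -0.976 (two-sided exact permutation p = 0.000794, the smallest that 2520 arrangements can give, adjusted value 0.00556, n = 8). The corresponding Pearson's r, -0.950 (exact permutation p = 0.000794), stayed at -0.950 when the 0.25 h libraries were left out and was -0.864 when the 12 h libraries were. In the first run, with 50 kb bins, rho was -0.732 (exact permutation p = 0.0548).

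The fall was shared by the genome, where the summed self share of all bins was 12.6% ± 1.72 after 0.25 h, 10.5% ± 0.180 after 1 h, 9.86% ± 0.0647 after 3 h and 6.15% ± 0.0719 after 12 h. PVT1 stood at 12.9% ± 1.97 and 4.93% ± 0.162 at the first and last time. In the limma fit of self against other contacts, 66.8% of 137198 bins were called, 66.6% higher after 0.25 h and 0.246% lower, and 10 of 16 PVT1 bins were higher and 0 lower. The median difference was 0.98 over PVT1 bins and 0.82 over all bins. In PVT1 it was largest at 128840001 (2.37, limma adjusted p = 0.00134), where the self share went from 7.84% ± 1.81 after 0.25 h to 1.58% ± 0.0306 after 12 h, and at 128920001 (2.03, adjusted p = 0.00134), where it went from 30.0% ± 4.71 to 9.44% ± 0.591. The largest differences of the window lay outside PVT1, at 131140001 (3.22), 127920001 (3.16) and 126920001 (2.86).

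For the promoter bin, the self share was 1.32% ± 0.443 after 0.25 h, 1.28% ± 0.660 after 1 h, 0.966% ± 0.460 after 3 h and 0.778% ± 0.467 after 12 h. For this trend rho was -0.439 (exact permutation p = 0.30, adjusted value 0.632), and r was -0.505 (exact permutation p = 0.199), with -0.471 when 0.25 h was left out and -0.346 when 12 h was. In single libraries the Wilson 95% interval ran from 0.243% to 0.822% at its lowest (12 h, replicate 1) and from 1.21% to 2.52% at its highest (1 h, replicate 1). The limma difference was 0.88 (95% interval -0.52 to 2.29, adjusted p = 0.218, and 0.243 to 1.52 with 1 library left out at a time), so a change of the size seen over all bins lay inside the interval. In the first run, where the 50 kb bin gave a mean self share of 15.9%, rho was -0.927 (exact permutation p = 0.00317). That bin is wider and lies mostly upstream of the second-run promoter bin, so the 2 self shares are not the same quantity.

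**Figure D5:**
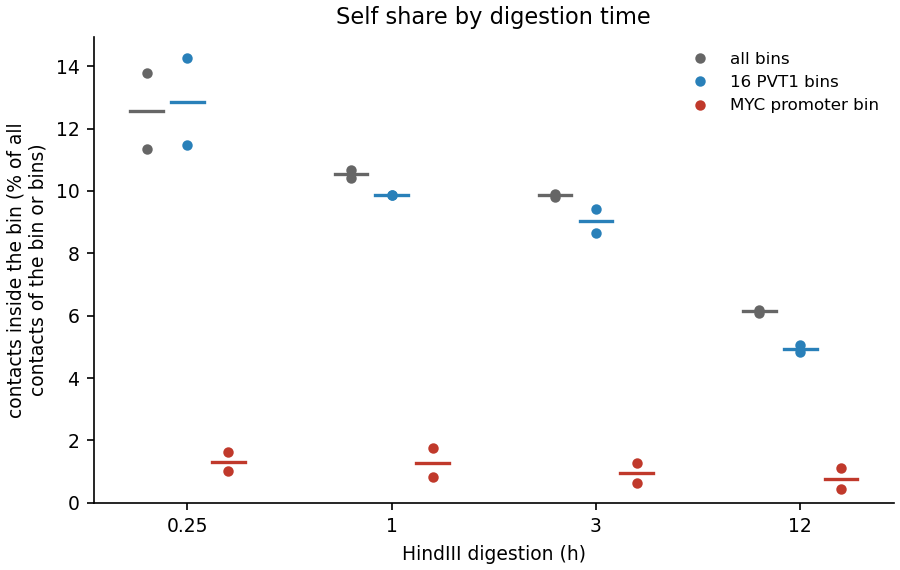
Share of contacts that lie inside the bin (y axis, percent, from 0) at each digestion time in h (x axis) for all bins summed, the 16 PVT1 bins summed and the MYC promoter bin. Points are single libraries and short lines means of 2; PVT1 falls from 12.9% to 4.93% beside all bins, and the promoter bin stays at or under 1.75%.

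In coverage the promoter bin was ordinary. Its 12098 contacts outside the bin, pooled over libraries, lay at the 59.9 percentile of all bins, whose median was 10411, and 1010 of them joined another chromosome. PVT1 bins held 4575 to 19277 such contacts. Coverage also varied among the bins named above, which is why levels are given balanced and contacts beside them.

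By order of genes in the RefSeq table of a later assembly, TRIB1, LRATD2, PCAT1, CCAT1, CASC8, POU5F1B and CASC11 precede MYC, and PVT1, CCDC26, GSDMC, CYRIB and ASAP1 follow it. The table belongs to another build, so these genes were not placed in the bins, and no gene is named here for the far downstream part or for the upstream stretch.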

How the data were processed

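Per the labels, Hi-C was performed on 8 K562 libraries, each sequenced in 2 runs (16 samples). The submitters' processing notes name HiC-Pro 2.11.1, Bowtie2 2.3.4.1 and hg19. Read filters and the balancing tool are not given in the sources used here. The deposited files hold a balanced contact signal for pairs of bins, 20 kb in the second run and 50 kb in the first, and the authors' balancing gave each bin a scaling factor and multiplied the contacts of a pair by both factors. Whole contacts were recovered from this signal, and 100% of values came within 0.01 of a whole number. Contacts copied by PCR are not independent, so intervals cover counting error only.

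The second run was the main data. Fits used limma 3.58.1 in R 4.3.3 (lmFit, eBayes, 1 mean per time) on all bins, bands, pairs or insulation scores, with Benjamini-Hochberg adjustment at 0.05. In the main fits, bands, pairs and insulation scores came from the balanced signal, and bin contacts and self shares from recovered whole contacts. Bins were compared as log2(CPM + 1), self shares and pairs with 0.5 contacts added. Bands and pairs were divided by the expected level, and insulation used 10 bins on each side. Trends and sign flips were exact permutation tests (numpy 2.4.6, scipy 1.17.1). The fits of bin contacts, pairs and bands were checked on simulated data, and those of self shares and insulation scores were not.

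Named bins were the 5 highest with the promoter bin on each side (at least 100 kb away, at least 20 contacts), the 3 highest with the far part, the 3 lowest insulation minima and the nearest 2 to MYC, and the 3 largest called differences each way. Members and lists were chosen with earlier results of these data known. Deviations of same-numbered libraries from their time means correlated at 0.117 to 0.267 over the 6 pairs of times for bin contacts. For self shares the correlations were 0.0171 to 0.129, with 1 of 6 over 0.1, and for bands, pairs and insulation scores at most 0.0164. The main fits did not pair libraries by replicate number, also for bin contacts, and a fit with a replicate block was run as an alternative. Alternatives covered balancing, scaling, filters, run, anchor size, replicates and the replicate block.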

Additional observations from a re-analysis of the deposited data

How the results depend on the processing

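The comparison of the far downstream part with its upstream mirror and the fall of the PVT1 self share kept their direction under every alternative run. Leaving out 1 library at a time gave a log2 difference of 3.28 to 3.55 for the first and a rho of -0.973 each time for the second, and the PVT1 self share missed the threshold in the first run (rho -0.732). Of the 6 trends that were not called, each except that of the MYC self share changed sign under an alternative. With 3 anchor bins MYC to PVT1 had a rho of 0.390. Without balancing, rho was -0.342 for MYC to the far part and 0.537 within PVT1. In the first run it was -0.244 for MYC to the far part, 0.0488 for MYC to the far mirror, -0.244 for PVT1 to the far part, 0.146 within PVT1 and -0.927 for the MYC self share. The first-run MYC values come from a 50 kb bin that lies mostly upstream of the second-run promoter bin. Leaving out 1 library gave -0.422 to 0.110 for MYC to PVT1, -0.349 to 0.239 for MYC to the far part, -0.826 to -0.385 for its mirror, -0.128 to 0.459 for PVT1 to the far part, -0.753 to -0.110 within PVT1 and -0.624 to -0.2203 for the MYC self share.

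In the fits, leaving out 1 library, which leaves its time with 1 library assumed to vary like the others, gave 0 to 2358 called pairs and 0 to 91 called insulation scores, each at its highest without 0.25 h replicate 1, and 52662 to 73783 called bins. It moved the far-distance difference of the promoter bin between -0.0846 and 0.155. Without balancing, 12984 anchors were called at the PVT1 distance (9.76%; 3377 higher, 9607 lower), and the promoter bin was not among them. Insulation scores gave 55536 calls (41.3%; 21126 higher, 34410 lower). An eBayes trend on the mean, added after the data were seen, called 1 anchor at the far distance. With 25 bins on each side the insulation difference of the promoter bin was 0.0235. The replicate block gave 80474 called bins (21.3% higher, 37.3% lower) with 3 higher and 7 lower in PVT1, a PVT1 self share p of 0.00347 (exact, 576 arrangements), 92054 called self shares (66.8% higher) with 10 higher and 0 lower in PVT1, and the same side of the threshold for the promoter bin in each of the 5 fits that hold it and for the 7 trends. The cause of these differences was not tested. Depth limited the far part, with 60 to 162 contacts a library, and its mirror, with 3 to 15.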

Other observations

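The mirror of PVT1, upstream of MYC, had a level with the far downstream part of 2.44 ± 0.0226 after 0.25 h, 2.503 ± 0.121 after 1 h, 2.71 ± 0.0975 after 3 h and 2.85 ± 0.05002 after 12 h (n = 2 each). Bins of the far part had a level with each other of 0.897 ± 0.0169 after 0.25 h and 0.839 ± 0.0126 after 12 h. Neither was among the trends tested.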
